A study of Mus musculus with 8 samples.

Results

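The genes described here are 8 members of the ERBB signalling family: the ligand genes Nrg1, Ereg, Areg, Hbegf and Tgfa and the receptor genes Egfr, Erbb2 and Erbb3. They were taken by gene name from a deposited table of 53801 genes. The names matched 7 of the 8 members. The row with the identifier of Areg, ENSMUSG00000029378, carries the deposited name Mcub. GENCODE M21 gives that identifier as Areg, and the RefSeq gene table lists Mcub among the synonyms of Areg. A separate row, ENSMUSG00000027994, also bears the name Mcub and is the Mcub of GENCODE. Areg was therefore read by its identifier, and all 8 members were found.

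The libraries, 4 PDGFRα- and 4 PDGFRα+, hold RNA of sorted stromal cells from mouse small intestine. Cells of both groups were YFP+ and lacked CD45 and CD31, the surface proteins of leukocytes and endothelial cells. Both came from mice that carry a floxed lymphotoxin β receptor gene (LTβRflox) together with PDGFRα/YFP, so no group without these alleles was compared, and the sort on surface PDGFRα is what separates the groups. The sources used here give neither the ages of the mice, nor what drives YFP, nor whether a library came from a single mouse. The p-values thus rest on library-to-library spread, part of which may be technical. The comparison asks how these 2 sorted fractions differ in their RNA.

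ERBB receptors are tyrosine kinases that act in pairs. Most of their ligands are made as membrane-anchored precursors, which proteases such as ADAM17 cut free. Epiregulin, amphiregulin, TGFα and HB-EGF bind EGFR, neuregulin 1 binds ERBB3 and ERBB4, and ERBB2 has no known ligand of its own and serves as a partner. In the intestine, ERBB ligands from the stroma are known to act on the epithelium, where they promote growth and repair.

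Total counts ran from 12.9 to 35.1 in units of 1e+06 per library. All 7 stromal marker genes listed (fibrillar collagen genes, Dcn, Lum, Pdgfrb and Vim) had a mean of at least 5 CPM, with summed levels of 118000 to 167000 CPM in PDGFRα- and 88300 to 114000 CPM in PDGFRα+ libraries. CPM here means counts per 1e+06 of library size after TMM scaling. Summed markers of other cells lay far below the stromal sums, but were not even. The 8 endothelial markers summed to 801 CPM in PDGFRα- library 4 and to 63.6 to 186 CPM in the other libraries. Of them, Tek alone stood at 55.1 to 91.6 CPM in PDGFRα- and 40.5 to 70.7 CPM in PDGFRα+ libraries. The 8 myeloid markers summed to 67.1 and 98.9 CPM in PDGFRα- libraries 3 and 4 and to 14.4 to 24.0 CPM in the others, with Itgam at 0 counts in every library. The 12 epithelial markers summed to 48.9 CPM in PDGFRα- library 2, 25.0 to 35.2 CPM in the other PDGFRα- libraries and 13.1 to 32.2 CPM in PDGFRα+ libraries. Of them, Lgals4 stood at 10.9 to 21.6 CPM over all libraries. Krt8 stood at 16.1 CPM in PDGFRα- library 2 and at no more than 3.15 CPM in the others. Smooth muscle markers summed to 345 to 1730 and 424 to 1390 CPM, lymphoid and mast cell markers to 411 to 635 and 468 to 606 CPM (mostly Rora, with Fcer1a at 0 counts), and mesothelial markers to 0.953 to 5.12 and 0.229 to 14.6 CPM in PDGFRα- and PDGFRα+ libraries. Results are also given without PDGFRα- libraries 3 and 4, an alternative chosen after seeing the data; the part of these markers in the results was not tested otherwise. In sorted bulk samples, fewer cells of a type and less RNA per cell cannot be told apart.

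Ereg, Areg and their neighbours lie together on chromosome 5. In GRCm38, Epgn (91027464 to 91035215) is followed by Ereg (91074622 to 91093646) after 39.4 kb, by Areg (91139599 to 91148432) after a further 46.0 kb and by Btc (91357261 to 91402994, on the opposite strand) after 209 kb. Promoter sequences from the RefSeq table (build GRCm38.p6) were matched for 4 of the 8 members, Areg, Tgfa, Egfr and Erbb2. The 250 bases before the start are shown for Areg and Egfr. Areg RNA was higher in PDGFRα+ libraries, though without an edgeR adjusted p under 0.05, and Egfr RNA stood at like levels in both fractions. Capitals mark matches on either strand to the cAMP response element TGACGTCA and to the TATA box letters TATAAA. The AP-1 letters TGANTCA were searched as well.
Areg, chr5:91139349-91139598, plus strand: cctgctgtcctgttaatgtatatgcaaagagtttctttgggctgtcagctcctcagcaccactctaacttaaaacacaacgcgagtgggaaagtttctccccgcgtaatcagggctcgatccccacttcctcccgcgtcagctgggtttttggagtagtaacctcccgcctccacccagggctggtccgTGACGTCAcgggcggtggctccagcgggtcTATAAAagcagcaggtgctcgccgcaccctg
Egfr, chr11:16751953-16752202, plus strand: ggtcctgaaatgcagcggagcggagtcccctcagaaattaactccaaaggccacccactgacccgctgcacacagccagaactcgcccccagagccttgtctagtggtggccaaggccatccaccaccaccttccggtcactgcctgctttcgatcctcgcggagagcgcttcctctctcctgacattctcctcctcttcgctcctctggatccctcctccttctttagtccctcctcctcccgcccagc

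The Areg window held the cAMP response element at 61 to 54 bases and the TATA letters at 31 to 26 bases before the start. Among 32851 RefSeq promoter windows of the same 250 bases, 1.55% held the cAMP response element, 12.4% the TATA letters and 6.75% the AP-1 letters. The Egfr window held none of these 3 motifs, nor did those of Tgfa and Erbb2. GC content was 57.2% for Areg and 60.8% for Egfr, against a median of 52.4% over all windows. A match describes the letters and is not a measurement of binding, and its part in any difference between the fractions was not tested.

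Across the 8 members, no gene passed the adjusted threshold of 0.05 when the groups were compared with group as the only term (edgeR's quasi-likelihood test, Benjamini-Hochberg over all 15643 tested genes). In this fit 0.243% of all tested genes were called, 0.192% higher and 0.0511% lower in PDGFRα+ cells. Ereg, Areg and Hbegf, 3 of the 7 tested members, had an unadjusted p under 0.05, against 6.95% of all tested genes (with the block 3 of 7, against 11.7%), and DESeq2 and limma-voom called 0 members with the same design. With the replicate number of the titles as a block, which is the model behind the authors' own comparison, Ereg was called higher in PDGFRα+ cells (1 of 7, against 1.34% of all tested genes called higher and 2.27% called in either direction). No member was called lower, against 0.933% of all tested genes. Of the 7 tested members 5 had positive log2 fold changes, with a median of 0.47, against 49.1% positive and a median of -0.01 over all tested genes. That median is the value of Erbb3, a gene with few counts and an SE of 1.44. Among the positive values, those of Nrg1, Erbb2 and Erbb3 had 95% intervals that included 0. The groups did not overlap for 2 members, Ereg and Areg, both higher in PDGFRα+ libraries, a pattern that 2.72% of all tested genes showed. No member was lower without overlap, against 2.34% of all tested genes.

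**Figure D1:**
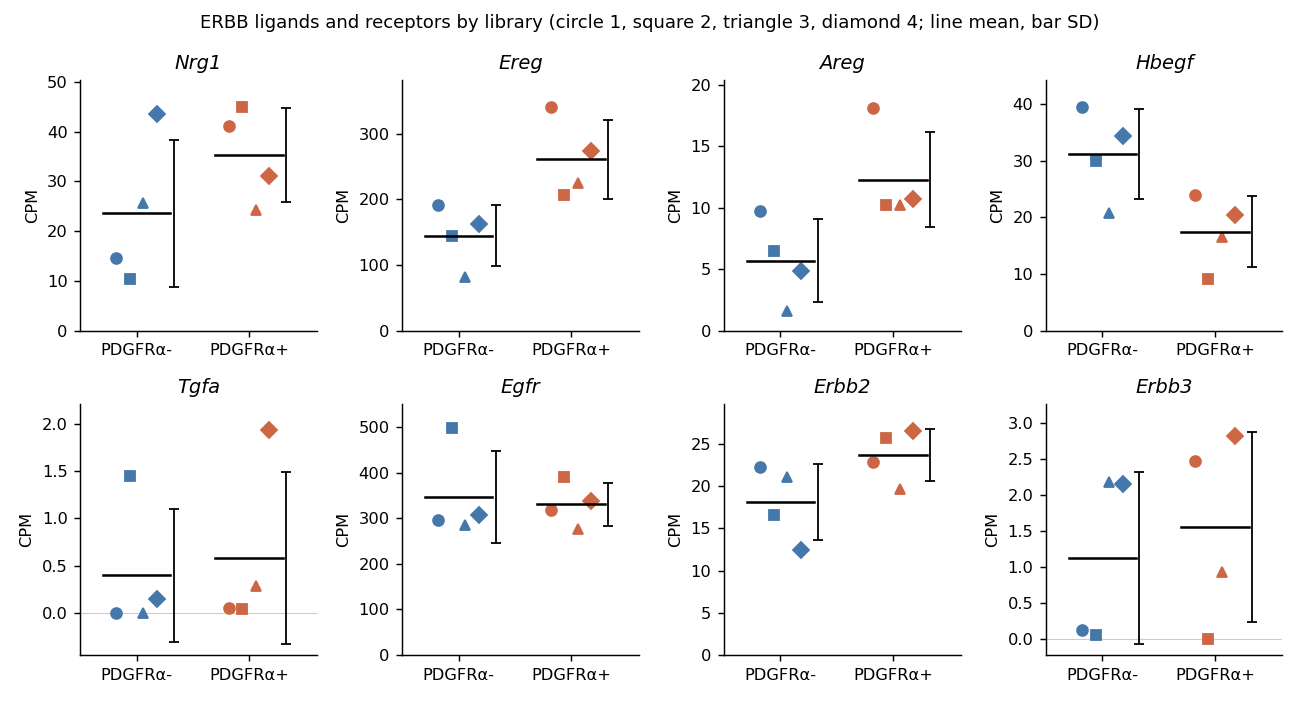
CPM of each member in the 4 PDGFRα- and 4 PDGFRα+ libraries, each panel on its own linear axis, with the group mean as a line and the SD as a bar (n = 4); marker shapes give the replicate number of the titles. For Ereg and Areg every PDGFRα+ point lies above every PDGFRα- point, and for Hbegf all but 1 PDGFRα+ library lie below all PDGFRα- libraries.

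**Figure D2:**
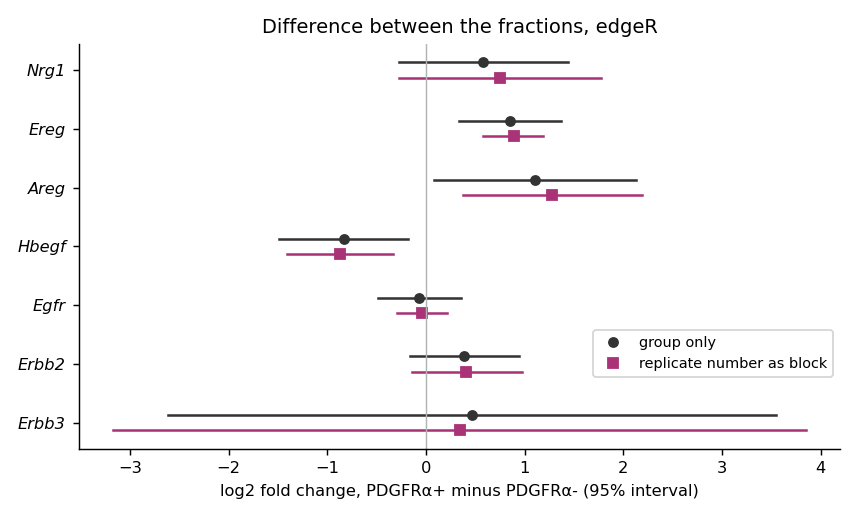
log2 fold changes (PDGFRα+ minus PDGFRα-) of the 7 tested members with 95% intervals, from the edgeR fit with group only (circles) and from the blocked fit (squares). The Ereg and Areg intervals lie above 0 and the Hbegf interval below 0 in both fits, and the Erbb3 interval spans from -2.62 to 3.55 in the first.

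Ereg, which encodes epiregulin, a ligand of EGFR and ERBB4, was the most abundant ligand transcript. Its level was 191, 144, 81.4 and 162 CPM in PDGFRα- libraries 1 to 4 and 341, 206, 225 and 273 CPM in PDGFRα+ libraries 1 to 4. The lowest PDGFRα+ library thus lay above the highest PDGFRα- library, and PDGFRα+ was higher within 4 of 4 replicate numbers. The means were 145 ± 46.5 and 261 ± 60.3 CPM (SD, n = 4), a 1.80-fold difference. With group as the only term the log2 fold change was 0.85 ± 0.24 (SE), with a 95% interval from 0.33 to 1.37 and an edgeR adjusted p of 0.270. With the replicate block it was 0.89 ± 0.14 (SE, edgeR adjusted p = 0.00321), and without replicate 3 the blocked call was lost (log2 fold change 0.70, adjusted p = 0.0629). PDGFRα- library 3 was the lowest for Ereg, and the unblocked log2 fold change was 0.65 without it and 0.64 without PDGFRα- libraries 3 and 4 (edgeR adjusted p = 0.526 and 0.615). The authors' deposited table gives a log2 fold change of 0.875 and an adjusted p of 2.2e-06 for Ereg. Exons of Ereg overlap Gm19610 on the other strand, which had 147 to 324 counts in PDGFRα- and 334 to 734 counts in PDGFRα+ libraries, against 1048 to 4707 and 3686 to 11912 counts for Ereg itself. The strand setting of the counting is not given in the sources used here.

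Areg encodes amphiregulin, an EGFR ligand associated with tissue repair, and was counted far less often than Ereg. Counts were 240, 130, 21 and 97 in PDGFRα- and 632, 249, 317 and 144 in PDGFRα+ libraries 1 to 4, or 9.75, 6.52, 1.63 and 4.86 CPM against 18.1, 10.2, 10.2 and 10.7 CPM. The groups did not overlap, although the gap between the nearest libraries was narrow, and library 1 was the highest of each group. The means were 5.69 ± 3.39 and 12.3 ± 3.87 CPM (SD, n = 4), 2.16-fold apart. The log2 fold change of 1.10 ± 0.48 (SE, 95% interval 0.08 to 2.13) did not pass the threshold (edgeR adjusted p = 0.659), nor did the blocked value of 1.28 ± 0.42 (adjusted p = 0.165). PDGFRα- library 3 was again the lowest. The unblocked log2 fold change was 0.80 without it and 0.59 without PDGFRα- libraries 3 and 4 (edgeR adjusted p = 0.908 and 0.951). In the authors' deposited table, under the name Mcub, this row has a log2 fold change of 1.272 and an adjusted p of 0.0608. The row that GENCODE gives as Mcub held 0 to 29 counts in PDGFRα- and 3 to 85 counts in PDGFRα+ libraries.

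Hbegf (chromosome 18, 36504927 to 36515805) encodes HB-EGF, a heparin-binding ligand of EGFR and ERBB4, and pointed the other way. It stood at 39.5, 30.0, 20.7 and 34.3 CPM in PDGFRα- libraries 1 to 4 and at 23.9, 9.08, 16.6 and 20.4 CPM in PDGFRα+ libraries 1 to 4. Only PDGFRα- library 3 and PDGFRα+ library 1 cross over, and PDGFRα+ was lower within 4 of 4 replicate numbers. The means were 31.1 ± 7.98 and 17.5 ± 6.33 CPM (SD, n = 4), 1.78-fold lower in PDGFRα+ cells. The log2 fold change of -0.83 ± 0.31 (SE, 95% interval -1.49 to -0.18) missed the threshold (edgeR adjusted p = 0.476), as did the blocked value of -0.87 ± 0.25 (adjusted p = 0.0985). The authors' deposited table lists Hbegf at a log2 fold change of -0.887 with an adjusted p of 0.0385. DESeq2 with the replicate block (-0.89, adjusted p = 0.0385) is the same model run again and no separate source. PDGFRα- library 3, with high myeloid markers, had the lowest Hbegf of its group, and library 4, with high myeloid and endothelial markers, the second highest. The log2 fold change was -0.99 without library 3, -0.78 without library 4 and -0.99 without both (edgeR adjusted p = 0.526, 0.643 and 0.578).

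Because Ereg and Hbegf pointed in opposite directions, their ratio within each library was computed; this ratio was chosen after their values were seen and is given as a description. Ereg counts were 4.84, 4.79, 3.94 and 4.74 times the Hbegf counts in PDGFRα- libraries 1 to 4. In PDGFRα+ libraries 1 to 4 they were 14.3, 22.7, 13.5 and 13.4 times the Hbegf counts. The ratio does not depend on how libraries are scaled to each other. It varied little among the PDGFRα- libraries (4.58 ± 0.428, SD, n = 4) and was higher in each PDGFRα+ library (16.0 ± 4.48, SD, n = 4), with geometric means 3.41-fold apart. Leaving out each library in turn gave 3.01-fold to 3.58-fold. The ratio of Areg to Ereg counts, by comparison, overlapped between the groups, at 0.0200 to 0.0510 in PDGFRα- and 0.0391 to 0.0531 in PDGFRα+ libraries.

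**Figure D3:**
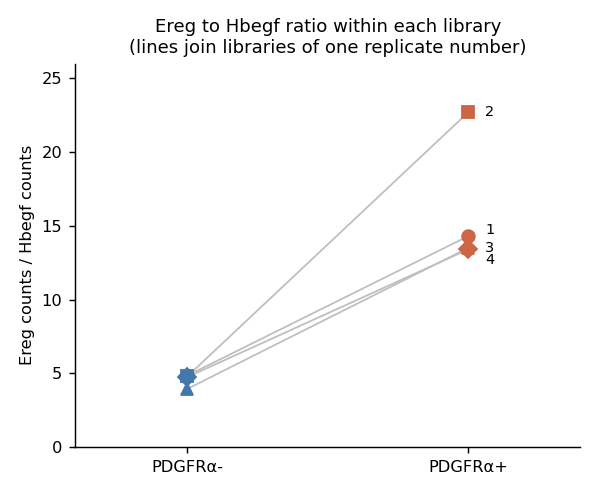
Ereg counts divided by Hbegf counts in each library (linear axis from 0), with lines joining libraries that share a replicate number. The 4 PDGFRα- libraries sit between 3.94 and 4.84 and the 4 PDGFRα+ libraries between 13.4 and 22.7.

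Nrg1 (chromosome 8, 31814551 to 32884029) encodes neuregulin 1, a ligand of ERBB3 and ERBB4. It varied more within the PDGFRα- group than between the groups. The levels were 14.6, 10.3, 25.7 and 43.6 CPM in PDGFRα- libraries and 41.1, 44.9, 24.2 and 31.0 CPM in PDGFRα+ libraries 1 to 4. PDGFRα+ was higher for replicate numbers 1 and 2 and lower for 3 and 4. The means of 23.6 ± 14.9 and 35.3 ± 9.44 CPM (SD, n = 4) gave a log2 fold change of 0.58 ± 0.39 (SE, 95% interval -0.27 to 1.44, edgeR adjusted p = 0.899). The interval allows both no difference and one above 2-fold. PDGFRα- library 4, which had the highest Nrg1 of its group and the 801 CPM of endothelial markers, moved the value most among single libraries of its group. Without it the log2 fold change was 1.07 (edgeR adjusted p = 0.350, unadjusted p = 0.00669), and without PDGFRα- libraries 3 and 4 it was 1.5 (adjusted p = 0.188). Over all alternatives run it ranged from 0.29 to 1.5.

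Tgfa, the gene of TGFα, was close to the limit of counting. It had 0, 29, 0 and 3 counts in PDGFRα- and 2, 1, 9 and 26 counts in PDGFRα+ libraries 1 to 4, and did not pass the filter on low counts. A count of 0 allows a level of up to 0.122 CPM in PDGFRα- library 1 and 0.233 CPM in PDGFRα- library 3, for counting error alone. Most of its reads came from PDGFRα- library 2 and PDGFRα+ library 4, and each group held libraries at or near 0. The authors' deposited table gives a fold change of 5.596 for Tgfa with an adjusted p of 0.599.

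Egfr, the gene of the receptor for most of these ligands (chromosome 11, 16752203 to 16918158), was the most abundant receptor gene. It stood at 295, 497, 286 and 308 CPM in PDGFRα- and 317, 390, 276 and 338 CPM in PDGFRα+ libraries 1 to 4. PDGFRα- library 2 was well above the rest of its group, and the groups overlapped throughout. The means were 346 ± 101 and 330 ± 47.4 CPM (SD, n = 4), with a log2 fold change of -0.07 ± 0.20 (SE, edgeR adjusted p = 0.991). The 95% interval from -0.49 to 0.35, and from -0.29 to 0.21 with the block, leaves room for a modest difference in either direction. Without PDGFRα- library 2 the log2 fold change was 0.16 (adjusted p = 0.984).

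Erbb2, the partner receptor without a ligand (chromosome 11, 98412470 to 98437716), was counted at 22.3, 16.6, 21.1 and 12.4 CPM in PDGFRα- and 22.9, 25.7, 19.7 and 26.6 CPM in PDGFRα+ libraries 1 to 4. The groups overlapped, with 3 of 4 replicate numbers higher in PDGFRα+. Its log2 fold change of 0.39 ± 0.26 (SE, 95% interval -0.16 to 0.94) did not pass the threshold (edgeR adjusted p = 0.885). Exons of Erbb2 overlap Mien1 on the other strand, which had 25 to 133 counts in PDGFRα- and 33 to 243 counts in PDGFRα+ libraries, against 247 to 549 and 359 to 799 counts for Erbb2.

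Erbb3 encodes a receptor with little kinase activity of its own that binds neuregulins (chromosome 10, 128567523 to 128589652). Its reads were few and patchy. Counts were 3, 1, 28 and 43 in PDGFRα- and 86, 0, 29 and 38 in PDGFRα+ libraries 1 to 4. Each group held libraries near 0 and libraries above 0.9 CPM, so the log2 fold change of 0.47 carries an SE of 1.44 (edgeR adjusted p = 0.993). Without PDGFRα- libraries 3 and 4 it was 4.08 (adjusted p = 0.842). Erbb3 is also known in glia and epithelium. The glial marker Sox10 was at 0, 0, 1.24 and 4.61 CPM in PDGFRα- and 0.0572, 0, 0 and 1.85 CPM in PDGFRα+ libraries 1 to 4, and Epcam, of epithelial cells, at 0.691, 3.31, 0.0776 and 1.75 CPM and 0, 1.19, 0 and 0.0741 CPM. Their part in the Erbb3 counts was not tested. The 8 glial markers summed to 106 to 158 and 92.0 to 172 CPM, most of it from Gpm6b, which was at 77.1 to 162 CPM in every library.

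Levels of different genes were compared per length, as RPKM, the CPM divided by kilobases of merged exons. Over all 8 libraries the order was Ereg (49.1 ± 19.3 RPKM, SD, n = 8), Egfr (29.9 ± 6.48), Areg (7.40 ± 4.01), Hbegf (5.03 ± 2.04), Erbb2 (4.01 ± 0.902), Nrg1 (2.84 ± 1.27), Erbb3 (0.222 ± 0.198) and Tgfa (0.0755 ± 0.117). Ereg lay above Egfr in 6 of 8 libraries and Egfr above Areg in 8 of 8. The order of Areg, Hbegf and Erbb2 differed between the fractions. Areg exceeded Hbegf in 0 of 4 PDGFRα- and 4 of 4 PDGFRα+ libraries, and Hbegf exceeded Erbb2 in 4 of 4 PDGFRα- and 1 of 4 PDGFRα+ libraries. Ereg likewise exceeded Egfr in 2 of 4 PDGFRα- and 4 of 4 PDGFRα+ libraries. Erbb2 exceeded Nrg1 in 7 of 8, Nrg1 exceeded Erbb3 in 8 of 8, and Erbb3 exceeded Tgfa in 6 of 8. Without division by length Egfr ranked first, and Areg, whose merged exons span 1215 bases, fell from rank 3 to rank 6.

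Of the summed RPKM of all 11 ERBB ligand genes, Ereg took 58.6% to 70.4% in PDGFRα- and 72.6% to 76.1% in PDGFRα+ libraries. Hbegf took 11.7% to 12.7% in PDGFRα- and 2.74% to 4.85% in PDGFRα+ libraries, so its share did not overlap between the groups. A share depends on the other ligands, so more Ereg alone lowers that of Hbegf. In CPM, Hbegf itself overlapped between the groups, at 20.7 in PDGFRα- library 3 and 23.9 in PDGFRα+ library 1. The share of Areg was 3.99% to 12.2% and 10.1% to 13.5%, and that of Nrg1 1.95% to 7.38% and 3.18% to 6.32%. The summed ligand RPKM was 52.8 ± 14.2 in PDGFRα- and 84.8 ± 18.6 in PDGFRα+ libraries (SD, n = 4), most of it Ereg. These shares were computed after the values of the members were known and are given without a test.

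**Figure D4:**
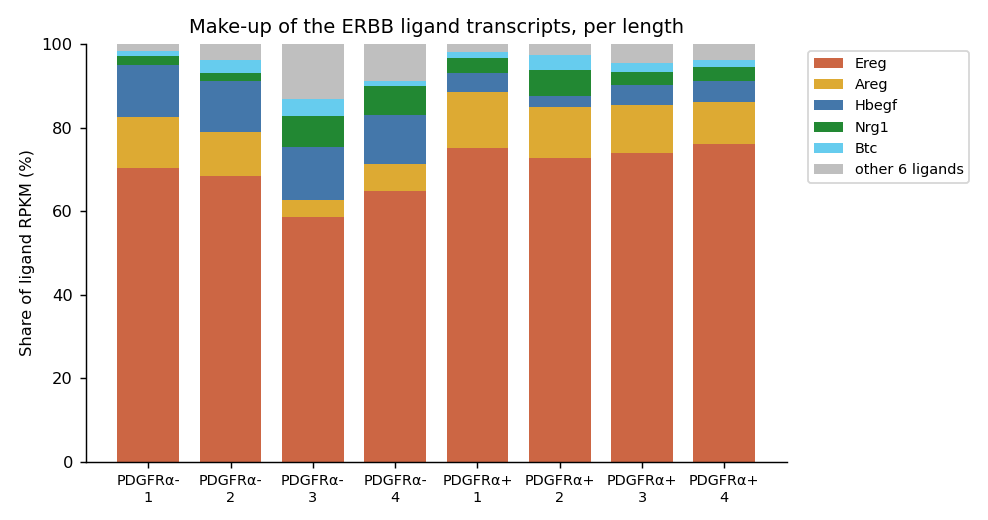
Share of each ligand in the summed RPKM of 11 ERBB ligand genes, as stacked percentages per library. Ereg is the largest part of every bar, and the Hbegf part is 11.7% to 12.7% in PDGFRα- and 2.74% to 4.85% in PDGFRα+ libraries.

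The other ligand genes and Erbb4 were low, and none passed the threshold in either edgeR fit (0 of 6 tested in both; 1 at an unadjusted p under 0.05 in each). Egf, the gene of epidermal growth factor, had 11, 0, 2 and 10 counts in PDGFRα- and 29, 146, 101 and 41 counts in PDGFRα+ libraries 1 to 4. Every PDGFRα+ library was above every PDGFRα- library, at means of 0.276 ± 0.238 and 3.27 ± 2.11 CPM (SD, n = 4; log2 fold change 3.52 ± 1.20 SE, edgeR adjusted p = 0.409). Of all tested genes, 2.72% were higher in PDGFRα+ without overlap. Egf passed the filter on low counts through its PDGFRα+ libraries, so its separation of the groups is given as a description. DESeq2 called Egf with and without the block, and the authors' deposited table, from the same model as DESeq2 with the block, gives it an adjusted p of 0.0230. Exons of Egf overlap 6330410L21Rik and Gm42697 on the other strand, and 23 of the 26 counts of Gm42697 were in PDGFRα+ library 2.

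Epgn and Btc, the outer genes of the chromosome 5 group, encode the EGFR ligands epigen and betacellulin. Epgn had 21, 2, 10 and 0 counts in PDGFRα- and 89, 44, 85 and 8 counts in PDGFRα+ libraries (log2 fold change 2.15 ± 1.30 SE, edgeR adjusted p = 0.860). Btc stood at 5.14 ± 2.12 and 7.95 ± 2.01 CPM (SD, n = 4; log2 fold change 0.63 ± 0.45 SE, adjusted p = 0.908). In CPM, both were higher in PDGFRα+ within 4 of 4 replicate numbers, as were Ereg and Areg between them. None of the 4 passed the unblocked test and Ereg alone the blocked edgeR test. The share of all tested genes with this pattern was not computed. Outside this group of genes, Egf, Spry1, Spry2, Spry4, Spred1, Spred2, Ptpn11 and Etv5 of the pathway lists showed it too. Epgn had few counts in PDGFRα- and, like Egf, passed the filter on low counts through its PDGFRα+ libraries.

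The other neuregulin genes and Erbb4 had negative log2 fold changes where tested. Nrg2 was at 4.76 ± 3.18 and 2.76 ± 2.60 CPM and Erbb4, the other neuregulin receptor gene, at 2.22 ± 1.62 and 1.04 ± 1.28 CPM (SD, n = 4; edgeR adjusted p = 0.970 and 0.964). Nrg3 had 552 counts in PDGFRα- library 4 and 3 to 77 in the other libraries (log2 fold change -2.17 ± 1.49 SE, adjusted p = 0.909). That library also had the highest endothelial marker sum. Nrg4 had 0 to 25 counts and was not tested.

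Further genes of the pathway were read from lists of ligand shedding, receptor brakes, adaptors and ERK response, which together with the other ligands and Erbb4 hold 45 genes. Of the 44 tested, 0 passed in edgeR with group as the only term, against 0.243% of all tested genes. An unadjusted p under 0.05 was found for 9 without the block, against 6.95% of all tested genes. With the block it was found for 15, against 11.7%. DESeq2 called 2 and limma-voom 0 with group only. With the block edgeR called 1 higher and 1 lower, against 1.34% and 0.933% of all tested genes. Both were among the 15 brakes, of which 5 had an unadjusted p under 0.05 without the block and 8 with it. Over the 44 genes the median log2 fold change was -0.02, close to -0.01 for all tested genes.

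Spry1, a sprouty gene whose product restrains receptor tyrosine kinase signalling to ERK, was called higher with the block. It stood at 23.9 ± 12.4 CPM in PDGFRα- and 59.8 ± 13.6 CPM in PDGFRα+ libraries (SD, n = 4), without overlap, as did 2.72% of all tested genes. The blocked edgeR fit gave 1.43 ± 0.20 on the log2 scale (SE, adjusted p = 7.8e-04) and the unblocked fit 1.32 ± 0.32 (adjusted p = 0.150). Exons of Spry1 overlap Gm42922 on the other strand, which had 69 counts in all libraries together, against 158 to 1931 for Spry1 in a library.

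Errfi1, whose product MIG6 binds and inhibits the EGFR kinase, was called lower with the block. The levels were 231 ± 79.2 and 154 ± 52.1 CPM (SD, n = 4), overlapping between the groups but lower in PDGFRα+ within 4 of 4 replicate numbers. The blocked edgeR fit gave -0.59 ± 0.11 on the log2 scale (SE, adjusted p = 0.0116) and the unblocked fit -0.59 ± 0.28 (adjusted p = 0.746). Spry1 was still called when replicate 3 was left out of the blocked fit, and Errfi1 was not.

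The other lists had no call in either edgeR fit. The 6 shedding genes, among them the sheddase gene Adam17 and the iRhom genes Rhbdf1 and Rhbdf2 that ADAM17 needs to mature, had log2 fold changes from -0.40 to 0.45 (1 at an unadjusted p under 0.05 in each fit). The 7 adaptor genes, such as Grb2 and Shc1, ranged from -0.29 to 0.22 (0 at an unadjusted p under 0.05). Of the 10 ERK response genes 3 had positive log2 fold changes, with a median of -0.30 and a range from -0.56 to 1.86 (2 had an unadjusted p under 0.05 without the block, against 6.95% of all tested genes, and 5 with it, against 11.7%). DESeq2 with the block called 4 of all 45 pathway genes higher, Spry1, Spry4, Spred1 and Egf, and 4 lower, Errfi1, Ier3, Phlda1 and Egr1. Of the genes with an adjusted p in the authors' deposited table, 4.82% are under 0.05.

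**Figure D5:**
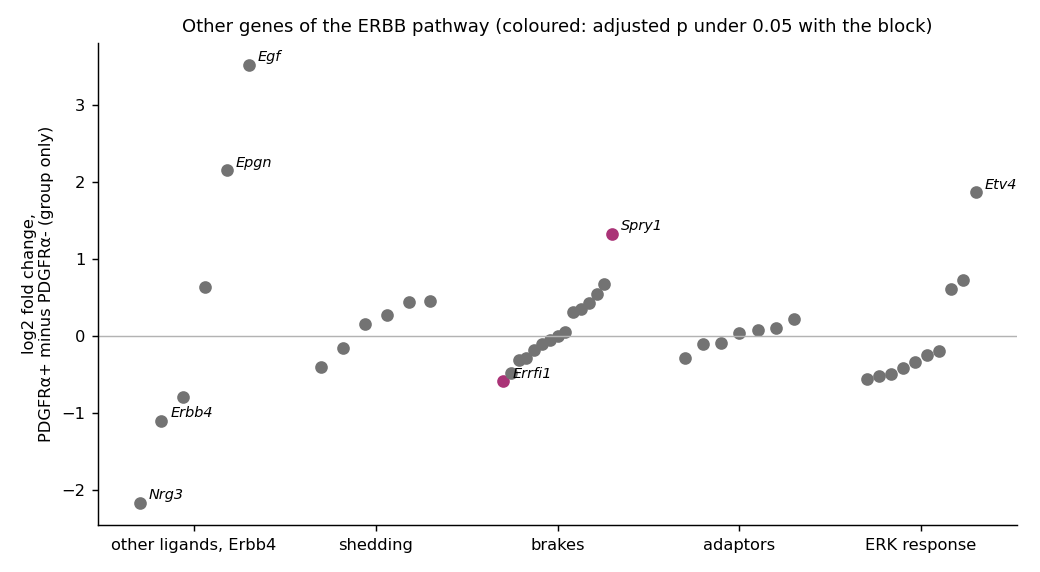
log2 fold changes (PDGFRα+ minus PDGFRα-, edgeR with group only) of the 44 tested pathway genes outside the 8 members, ordered within 5 lists. Coloured points, Spry1 and Errfi1, have an adjusted p under 0.05 with the replicate block; most other genes lie close to 0, and the wide values belong to genes with few counts.

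The genes whose profiles over the 8 libraries were nearest to each member were found among 10005 genes with a mean of at least 5 CPM, as the smallest root mean square difference of log2 CPM after removing each gene's mean. For Ereg they were Surf2, Brix1 and Ostm1, at differences of 0.13, 0.23 and 0.24, against a spread of 0.59 for Ereg about its own mean. For Areg they were Chchd1, Galk1 and Ostm1, at 0.22, 0.27 and 0.33 against 0.94, so Ostm1 appeared for both. The nearest to Hbegf were Cd24a and Fzd7 at 0.19 and 0.20 against 0.62. Those of Nrg1 were Rufy3, Pus7 and Pinx1 at 0.26, 0.28 and 0.29 against 0.72. Egfr was nearest to Dop1a, Rp9 and Spin1 at 0.09, 0.10 and 0.10 against 0.26, and Erbb2 to Eif2d, Drg2 and R3hcc1l at 0.11, 0.13 and 0.13 against 0.34. These are likenesses over 8 libraries out of many genes searched, given as a description.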

How the data were processed

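A stranded low-input total RNA kit was used, per the labels' protocols. The submitters' processing notes name GRCm38 as the build, DESeq2, and cutadapt 3.4, STAR 2.7.3a and featureCounts 2.0.1. The sources used here do not give the annotation release or strand setting. Raw read counts per gene, as deposited, entered every fit. The authors also deposited size-factor-scaled, rounded values (a score, not tested here). Their own comparison is deposited as log2 and linear ratio (fold) values with p-values, raw and adjusted.

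Of 53801 rows, 53620 have an identifier in GENCODE M21, which gave symbols, positions and exon lengths; 1591 deposited names differ from its symbols. Groups were compared with edgeR 4.0.16 (quasi-likelihood, robust, TMM, filterByExpr, 15643 genes) in R 4.3.3, with the replicate number as a block as an alternative. SE is the log2 fold change divided by the square root of F. DESeq2 1.42.0, limma-voom 3.58.1, upper-quartile scaling, no filter and left-out libraries were other alternatives. Those left-out fits kept the 15643 genes.

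By the rule set here, the replicate number was not taken to pair libraries. Deviations from the group means correlated at 0.23, 0.18, 0.022 and 0.27 for numbers 1 to 4, and 0.1 was required of each. Number 3 alone fell short. However, 7 of the 8 libraries correlated best with the library of their own number. In edgeR, 669 of 15643 genes differed between replicate numbers. Whether the number pairs libraries is therefore undecided. The authors' model does include the number. DESeq2 with number and group gave their log2 fold changes within 0.0015 for 100% of 29254 genes, and with group alone for 1.74%. The blocked value is therefore printed where a call differs. The fits were tested on simulated data. In 1 simulated data set of each kind, 6.25% of unblocked and 15.1% of blocked calls were false on unpaired data, against 0% and 9.26% on paired data. Of 2-fold changes, the unblocked fit recovered 23% and the blocked fit 21% on unpaired data, against 15% and 42% on paired data. The paired data split each gene's spread beyond counting error evenly between the replicate number and the single library. That split was not matched to the correlations above, so these rates need not hold for these libraries.

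Named genes were all 8 members, the other ERBB ligands and Erbb4, pathway genes called by either edgeR fit, and the 3 nearest genes of each member whose mean CPM reaches 5, of which 1 is not reported here. Outside this rule, pathway genes called by DESeq2 with the block were named after their values were seen. So were 5 well-known genes as examples of their lists, and the pathway genes higher in PDGFRα+ within every replicate number. The members and lists were chosen with earlier results of these data known. The labels name no molecular identifiers, so reads may be copies of a molecule and limits from counts cover counting error only.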

Additional observations from a re-analysis of the deposited data

Results flagged for a closer look

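Among the 16 sets of 4 libraries examined (8 members in each fraction), 4 had a library far from the other 3 of its group, by a gap that took most of the group's range (Dixon's criterion); chance alone gives about 1 in 20. Areg was at 18.1 CPM in PDGFRα+ library 1. Egfr was at 497 CPM in PDGFRα- library 2. Tgfa was at 1.45 CPM in PDGFRα- library 2 and at 1.93 CPM in PDGFRα+ library 4, from 29 and 26 counts.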

How the results depend on the processing

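The log2 fold changes of Ereg, Areg, Hbegf, Nrg1 and Erbb2 kept their sign in all 19 alternatives. Ereg ranged from 0.64 to 1.01 and was called in 6 of them, Hbegf ranged from -1.06 to -0.60 and was called in 1, and Areg ranged from 0.59 to 1.51 without a call. Egfr ranged from -0.16 to 0.16 with 1 library left out and changed sign to 0.16 without PDGFRα- replicate 2, to 0.01 without PDGFRα+ replicate 3 and to 0.06 with the replicate block without replicate 2. Erbb3 changed sign to -0.82 with the replicate block without replicate 1. The cause was not tested beyond the libraries left out. The number of members called was 0 with group only, 1 with the replicate block, 1 with no filter on low counts and 2 with DESeq2 and the replicate block. It was 0 in every fit that left out 1 library, 0 without PDGFRα- libraries 3 and 4 (chosen after seeing the data) and 0 to 1 in the blocked fits that left out a number, with 0 without replicate 3. The number of other pathway genes called was 0 with group only, 2 with the replicate block, 2 with DESeq2, 1 with no filter and 8 with DESeq2 and the replicate block. It was 0 to 1 with 1 library left out, the 1 being Spry1 without PDGFRα- replicate 4. In the blocked fits that left out a number it was 1 to 5, at 1 without replicate 3 and 5 without replicate 4. Over all genes, 38 were called with group only, 355 with the replicate block, 272 with DESeq2, 277 with no filter and 809 with DESeq2 and the block, and 7 to 48 with 1 library left out. Of the 8 libraries, 7 had their highest correlation with the same-numbered library of the other group, and 669 of 15643 genes passed a test of the number. Other scalings moved the median log2 fold change of all tested genes by at most 0.01. Tgfa was tested only with no filter and by DESeq2 (0.49 with no filter, edgeR adjusted p = 0.964). Tgfa, Erbb3, Egf, Epgn and Nrg4 had few counts, which varied widely between libraries.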
